A study of Mus musculus with 236 samples.

Results

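The p53 pathway is described here through 9 genes: Trp53, Cdkn1a, Trp53inp1, Mdm2, Mdm4, Ccng1, Gadd45a, Bax and Zmat3. They were taken by name from the deposited expression table, which lists 39300 genes, and all 9 were found there. Chromatin contacts and RNA had been read from the same single cells with HiRES, in 1 female mouse embryonic stem cell line from blastocysts of a C57BL/6J mother and a CAST/EiJ father. All cells were first kept in serum medium with LIF and with inhibitors of GSK3 (CT99021) and MEK (PD0325901). Differentiation began when these were withdrawn and the cells were plated on fibronectin, and cells were collected at day 0.5 and at day 2.5. No undisturbed culture in LIF and inhibitors was analysed here, so both groups are cells after withdrawal.

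The protein p53, encoded by Trp53, is a transcription factor that is stabilised by DNA damage and other stress and then switches on genes for cell cycle arrest, DNA repair, apoptosis and its own inhibition. Its level is held down by Mdm2, a ubiquitin ligase that marks it for degradation and is itself a target, and by the related inhibitor Mdm4. In mouse embryonic stem cells p53 is known to be abundant and to favour differentiation by lowering Nanog, and p53 is controlled to a large extent at the protein level, which was not measured.

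The data covered 201 cells at day 0.5 and 205 cells at day 2.5, from 236 libraries of 1 or 2 cells. Median depth was 13670 and 15796 unique molecular identifiers (UMIs) per cell. No cell name occurred in more than 1 library and no 2 cells had identical values. Separate cultures are not named in the labels, so a day counts as 1 sample and no difference below has a test. Intervals are 95%, cover counting error only, and do not show how cultures vary. The cell table gives 3 labels, here called batches: batch 1 held 80 day 0.5 cells, batch 2 held 121 day 0.5 and 122 day 2.5 cells, and batch 3 held 83 day 2.5 cells. Summed naive pluripotency markers were at 1101 CPM at day 0.5 and 73.9 CPM at day 2.5 (CPM, the UMIs of a gene scaled by all UMIs of the group), and formative markers at 2179 and 2771 CPM. Of the 7 formative markers 6 were higher at day 2.5, and Lef1 was lower, at 1409 and 712 CPM. The lists for primitive endoderm, trophectoderm and fibroblasts summed to between 8.7 and 46.8 CPM on either day, and all 9 two-cell-like markers in the table were at 0.

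RefSeq (GRCm38.p6) places Trp53 at chr11:69580348-69591873, Cdkn1a at chr17:29090979-29100722, Trp53inp1 at chr4:11156441-11174379, Mdm2 at chr10:117688875-117710758 and Mdm4 at chr1:132986105-133030587. Ccng1 lies at chr11:40748552-40755309, Gadd45a at chr6:67035096-67037407, Bax at chr7:45461695-45466903 and Zmat3 at chr3:32334792-32365665. None of the 9 lies on the X chromosome. Mdm4 overlaps 2 other RefSeq genes, Gm29257 and Gm41953, Gadd45a overlaps E230016M11Rik and Zmat3 overlaps 4930429B21Rik. No source used here says whether counting used the strand, so UMIs of these neighbours cannot be told apart. The pseudogene Trp53-ps was listed with 0 UMIs on both days, and none of the 289 cells with a value for Trp53 held a fraction. Whether reads from the pseudogene were given to Trp53 was not tested. Of the cells with a value for Cdkn1a, 17.4% held a fraction, so part of its UMIs may be shared with another feature.

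Because p53 acts on its targets by binding DNA, the promoter windows of the genes (250 bases before to 50 bases after the start site, from RefSeq) were searched for the p53 half-site consensus, a motif of 10 bases that is its own reverse complement and of which p53 usually binds a pair. The table held promoters of 7 of the 9 genes. Trp53inp1 and Zmat3 were not among them. At least 1 exact half-site was found for 6 of these 7 genes, against 8.36% of all 32851 promoters in the table and 9.55% of its genes. The stretches around the matches are shown 5′ to 3′ on the strand of the gene, all of them before the start site, with the half-sites in capitals.

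Cdkn1a, chr17:29090886-29090957, plus strand: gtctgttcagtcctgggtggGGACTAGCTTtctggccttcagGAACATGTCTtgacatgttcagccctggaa

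Mdm2, chr10:117710915-117710964, minus strand: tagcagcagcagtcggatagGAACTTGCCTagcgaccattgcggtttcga

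Ccng1, chr11:40755442-40755491, minus strand: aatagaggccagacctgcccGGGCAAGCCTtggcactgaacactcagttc

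Trp53, chr11:69580264-69580313, plus strand: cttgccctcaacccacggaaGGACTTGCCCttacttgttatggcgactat

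Gadd45a, chr6:67037418-67037467, minus strand: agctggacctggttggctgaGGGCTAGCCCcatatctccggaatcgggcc

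Bax, chr7:45467070-45467119, minus strand: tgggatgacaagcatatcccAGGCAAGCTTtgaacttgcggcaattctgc

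Of the 7 genes searched, Cdkn1a alone had 2 half-sites in 1 window. They are separated by 12 bases, and 24 of the 32851 promoters (0.0731%) held 2 half-sites 0 to 13 bases apart. The second Cdkn1a promoter and both Mdm4 promoters held no exact match. A match is a run of letters and no measurement of binding, and half-sites occurred in promoters of genes that were higher, lower and alike between the days.

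Between the days, Cdkn1a, Trp53inp1, Mdm2 and Ccng1 were higher at day 2.5, by 2.73 to 5.25 times, and Trp53 and Gadd45a were lower. A gene is called higher or lower here when its ratio of CPM reached 1.5 or its inverse with at least 20 UMIs over both days. By that rule 4 of the 9 genes were higher and 2 lower, while 21.4% of the 13777 genes with enough UMIs were higher and 25.6% lower. The median log2 change was 0.56 over the 9 genes and -0.06 over all 13777. The share called higher is thus above that of all genes and the share called lower is close to it, with no test of either.

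Trp53 itself stood at 160.8 CPM (145.9 to 176.8) at day 0.5 and 68.4 CPM (59.6 to 78.1) at day 2.5, on 427 and 218 UMIs. Per cell it ranged from 0 to 8 UMIs around a median of 2 at day 0.5 and from 0 to 9 around a median of 1 at day 2.5. By batch it was at 153 and 167 CPM at day 0.5 and at 81.7 and 51.7 CPM at day 2.5, so both day 2.5 batches lay below both day 0.5 batches. The ratio of day 2.5 over day 0.5 was 0.43 (0.36 to 0.50), and 0.49 within batch 2.

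Mdm2 was at 105.99 CPM (93.97 to 119.1) at day 0.5 and 289.9 CPM (271 to 309) at day 2.5. The batches stood at 85.6 and 123 CPM at day 0.5 and at 238 and 355 CPM at day 2.5. All day 2.5 values were above all day 0.5 values, but the batches of 1 day also differed, by 1.44 times at day 0.5 and 1.49 times at day 2.5. The ratio between days was 2.73 (2.39 to 3.14), with 1.93 within batch 2 and 4.15 between batches 3 and 1. Of the 500.5 UMIs of Mdm2 in batch 3, 48, 50 and 54 came from 3 single cells, described below. Mdm4, in contrast, was at 361 CPM (339 to 385) and 396 CPM (374 to 418), a ratio of 1.10 (1.01 to 1.19). Its 4 batch values lay between 351 and 420 CPM, and 1.02 was the ratio within batch 2.

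Among the genes for cell cycle arrest, Cdkn1a encodes p21, an inhibitor of cyclin-dependent kinases. It was at 30.7 CPM (24.4 to 38.1) at day 0.5 and 104.99 CPM (94.04 to 116.9) at day 2.5. Batches stood at 20.6 and 39.2 CPM at day 0.5 and at 110.7 and 97.8 CPM at day 2.5, without overlap between the days. Its ratio was 3.42, and 2.82 within batch 2. Ccng1, the gene of cyclin G1, which takes part in feedback on Mdm2, went from 19.2 CPM (14.3 to 25.3) to 75.5 CPM (66.3 to 85.7). The batches were at 13.99 and 23.6 CPM and then at 72.96 and 78.7 CPM, a ratio of 3.93 over all cells and 3.09 within batch 2. When each cell counted equally, whatever its depth, the log2 change of Ccng1 was 0.81 in place of 1.73. The 15 shallow cells of the M class at day 0.5 held 25.5% of its UMIs there.

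Trp53inp1, a stress-induced partner of p53 with a role in autophagy, differed most of the 9 genes. It was at 58.9 CPM (50.1 to 68.9) at day 0.5 and 309 CPM (290 to 329) at day 2.5, with batches at 43.6 and 71.9 CPM and then at 273 and 356 CPM. All 4 batch values kept the days apart, and the ratio was 5.25, and 3.80 within batch 2. Zmat3, which encodes a zinc finger protein that binds RNA, went from 113.3 CPM (100.9 to 126.9) to 168.9 CPM (154.9 to 183.8). Its ratio of 1.49 lay just under the threshold, and it was called higher under 9 of 17 alternative settings.

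Gadd45a, a gene of growth arrest and DNA damage, and Bax, whose product opens the outer mitochondrial membrane in apoptosis, were sparse. Gadd45a had 29 UMIs at day 0.5 and 11 at day 2.5, or 10.9 CPM (7.31 to 15.7) and 3.45 CPM (1.72 to 6.18). Its ratio of 0.32 rests on 27 and 9 cells. Bax had 22 and 24.5 UMIs, or 8.28 CPM (5.19 to 12.5) and 7.69 CPM (4.95 to 11.4), and its ratio of 0.93 ran from 0.50 to 1.73. Its batch values went from 5.0 to 10.3 CPM and overlapped between the days.

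**Figure D1:**
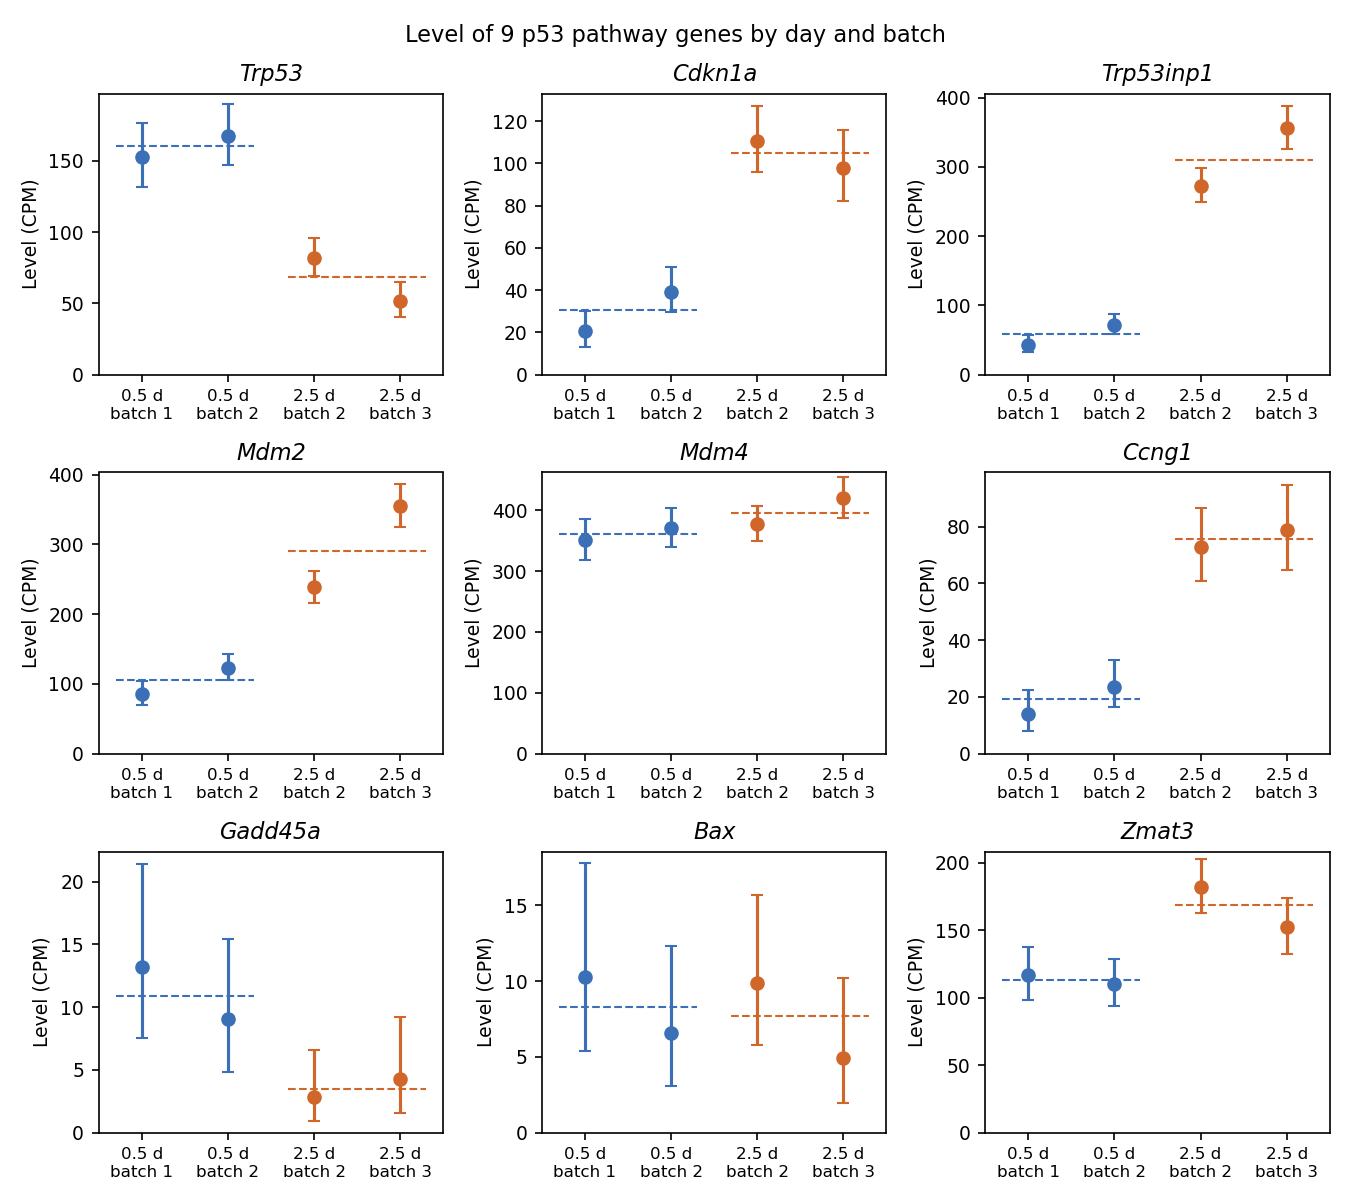
Level of each of the 9 genes in CPM (vertical axes, from 0) for the cells of each day in each batch. Points are summed levels with 95% Poisson intervals, dashed lines the level over all cells of a day. Batch values overlap between days for Bax alone. Those of Mdm4 lie close together, between 351 and 420 CPM, and those of Gadd45a rest on 5 to 16 UMIs each.

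The 6 called genes differed in the same direction in their share of cells with a UMI. Since day 2.5 cells were deeper, every cell was thinned to 5000 UMIs, which kept 194 day 0.5 and 198 day 2.5 cells and left out 7 of each day. Trp53inp1 was then seen in 30 cells (15.5%) at day 0.5 and in 57.6% of cells at day 2.5, a difference of 42.1 percentage points (33.1 to 50.1). Before thinning it was 32.3% and 77.1%. Ccng1 was seen in 5.67% and 27.3% of thinned cells (16.4% and 55.6% before) and Cdkn1a in 13.9% and 31.8% (23.4% and 55.6% before). Mdm2 was seen in 34.02% and 53.5% of thinned cells (57.2% and 81.5% before).

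Zmat3 was seen in 29.4% and 51.01% of thinned cells (57.7% and 80.5% before), a difference of 21.6 points (11.96 to 30.7). Trp53 went the other way, from 54.1% to 28.3%, a difference of -25.8 points (-34.8 to -16.2), with 83.6% and 59.02% before thinning. Mdm4 was seen in most cells of both days, 69.1% and 75.3% (87.6% and 91.2% before), with an interval of the difference from -2.69 to 14.9 points. Gadd45a was seen in 12 and 2 thinned cells and Bax in 5 and 5, too few for an order between days in Bax.

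**Figure D2:**
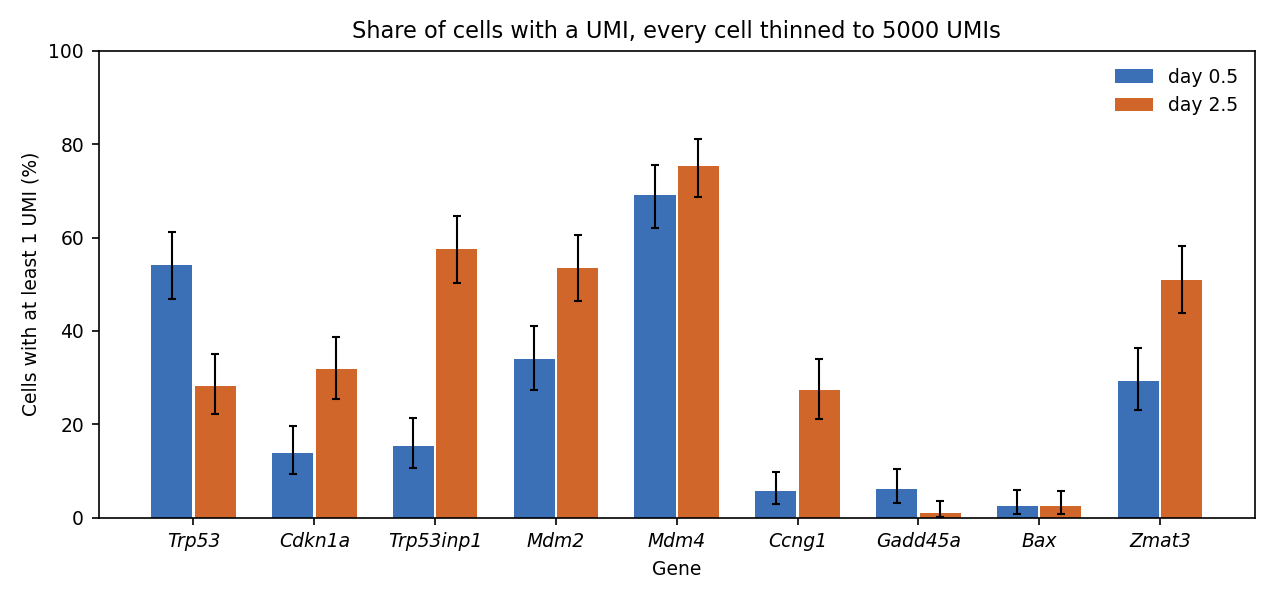
Share of cells with at least 1 UMI of each gene (vertical axis, percent) after thinning each cell to 5000 UMIs, with 194 cells at day 0.5 and 198 at day 2.5. Error lines are 95% Clopper-Pearson intervals. Trp53 and Gadd45a are seen in fewer cells at day 2.5, and Cdkn1a, Trp53inp1, Mdm2, Ccng1 and Zmat3 in more.

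The signal was spread unevenly over cells. At day 0.5 the 10 cells with the most UMIs of a gene held 50.8% of the UMIs of Trp53inp1, 52.9% of those of Ccng1 and 47.9% of those of Cdkn1a, against 15.5% for Trp53 and 16.5% for Mdm4. At day 2.5 the 10 highest cells held 25.2%, 22.9% and 23.5% of Trp53inp1, Ccng1 and Cdkn1a, and 36.004% of Mdm2. These shares also depend on how many UMIs a gene has. A few of the cells behind these shares are described next.

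A single day 0.5 cell of the Late-S class, in the authors' RNA cluster 4, stood apart. Of its 9493 UMIs, 1.11% came from the 9 genes, and the day 0.5 cell with the next highest number held 56.5 of 16211 (0.349%). Its UMIs were 42 of Mdm2, 28 of Trp53inp1, 10 of Zmat3, 8 of Cdkn1a and 7 of Ccng1, with only 2 of Trp53 and none of Bax or Gadd45a. That is 14.9% of all day 0.5 UMIs of Mdm2 and 17.9% of those of Trp53inp1 from 1 of 201 cells. Without this cell the ratios between days were 3.20 for Mdm2, 6.37 for Trp53inp1, 4.54 for Ccng1, 3.78 for Cdkn1a and 1.54 for Zmat3, and Zmat3 was then called higher.

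The authors gave each cell a cell cycle class, by a rule that no source used here describes. At day 0.5 the largest class was Mid-S with 87 cells, followed by G1 with 41, Early-S with 32, Late-S with 20, M with 15 and G2 with 6. At day 2.5 G1 was the largest with 82 cells, and Mid-S had 62, G2 18, Late-S 17, Early-S 15, M 7 and G0 4. Differences between days were also seen within classes, though not in all of them. Within Mid-S cells the ratio of day 2.5 over day 0.5 was 8.63 for Trp53inp1, 7.44 for Ccng1, 5.26 for Cdkn1a, 4.54 for Mdm2 and 0.50 for Trp53. Within G1 cells the same ratios were 6.62, 3.35, 2.90, 1.68 and 0.36. Within Late-S cells, 20 and 17 in number, Trp53inp1 (3.21) and Ccng1 (2.52) were called, while Cdkn1a (1.49, from 0.73 to 3.06), Mdm2 (1.32, from 0.92 to 1.90) and Trp53 (0.71, from 0.41 to 1.21) were not. The single high cell is one of these 20. It held 42 of their 63 UMIs of Mdm2, 28 of 33 of Trp53inp1, 8 of 16.5 of Cdkn1a and 7 of 9 of Ccng1. The Late-S ratios of these 4 genes thus rest in large part on 1 cell, which raises the day 0.5 side. Within M cells, 15 and 7 in number, the ratio of Trp53inp1 was 1.33 (0.71 to 2.41) and was not called. With the 4 classes of at least 10 cells on both days weighted equally, the same 4 genes were called higher and the same 2 lower.

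Cells of the M class had higher levels of several targets at day 0.5. Ccng1 was at 117.6 CPM (62.6 to 201) in the 15 M cells and 14.9 CPM in the other 186 cells, a ratio of 7.88 (3.85 to 15.1). Trp53inp1 was at 321 and 47.5 CPM (ratio 6.76), Cdkn1a at 117.6 and 26.9 CPM (4.37), Zmat3 at 271 and 106.5 CPM (2.55) and Mdm2 at 208 and 101.6 CPM (2.05). Trp53 was at 145 and 161 CPM, with a ratio of 0.90 and an interval from 0.51 to 1.47. A single M cell of batch 2 had 16211 of the 110552 UMIs of the class. It held 7 of the 13 UMIs of Cdkn1a in M cells and 12.5 of 35.5 of Trp53inp1. It also held 11 of 30 of Zmat3, 8 of 23 of Mdm2 and 2 of 13 of Ccng1. The M ratios, that of Cdkn1a most, thus rest in part on 1 cell.

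By the 1.5 ratio 6 of the 9 genes were higher in M cells, the sixth being Bax with 3 UMIs there, against 33.9% of the 10639 genes with enough UMIs. Among genes no longer than Mdm4, the longest of the 9, 45.1% were higher in M cells, so the direction alone was common for genes of such lengths. Gadd45a had no UMI in M cells, where 3 UMIs would have been 27.1 CPM, above its level elsewhere. M cells were shallow, with a median of 5818 UMIs against 13931 in the others, and a median of 2.51% of their contacts lay between chromosomes, against 7.83%. The part of depth and of gene length in these ratios was not tested beyond thinning.

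In batch 2, with 11 M cells, the ratios of M over other cells were 7.54 for Ccng1, 2.67 for Zmat3, 4.25 for Cdkn1a, 7.55 for Trp53inp1 and 2.23 for Mdm2. In batch 1, with 4 M cells, they were 6.43, 2.502, 2.01, 1.89 and 0.47, on 7 UMIs for Zmat3 and 1 or 2 for each of the others, and all 5 intervals there included 1. At day 2.5 the 7 M cells were at 451 CPM for Cdkn1a, 261 for Ccng1 and 617 for Zmat3, with 100.4, 72.997 and 163 CPM in the others. Trp53inp1 (427 and 308 CPM, ratio 1.39, from 0.82 to 2.21) and Mdm2 (380 and 289 CPM, ratio 1.32, from 0.75 to 2.15) were not called. Mdm4 was at 71.2 CPM in them, on 3 UMIs, and 400 CPM in the others. Leaving out the M class on both days changed the ratios between days to 6.48 for Trp53inp1, 4.89 for Ccng1, 3.73 for Cdkn1a, 2.84 for Mdm2 and 1.53 for Zmat3.

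**Figure D3:**
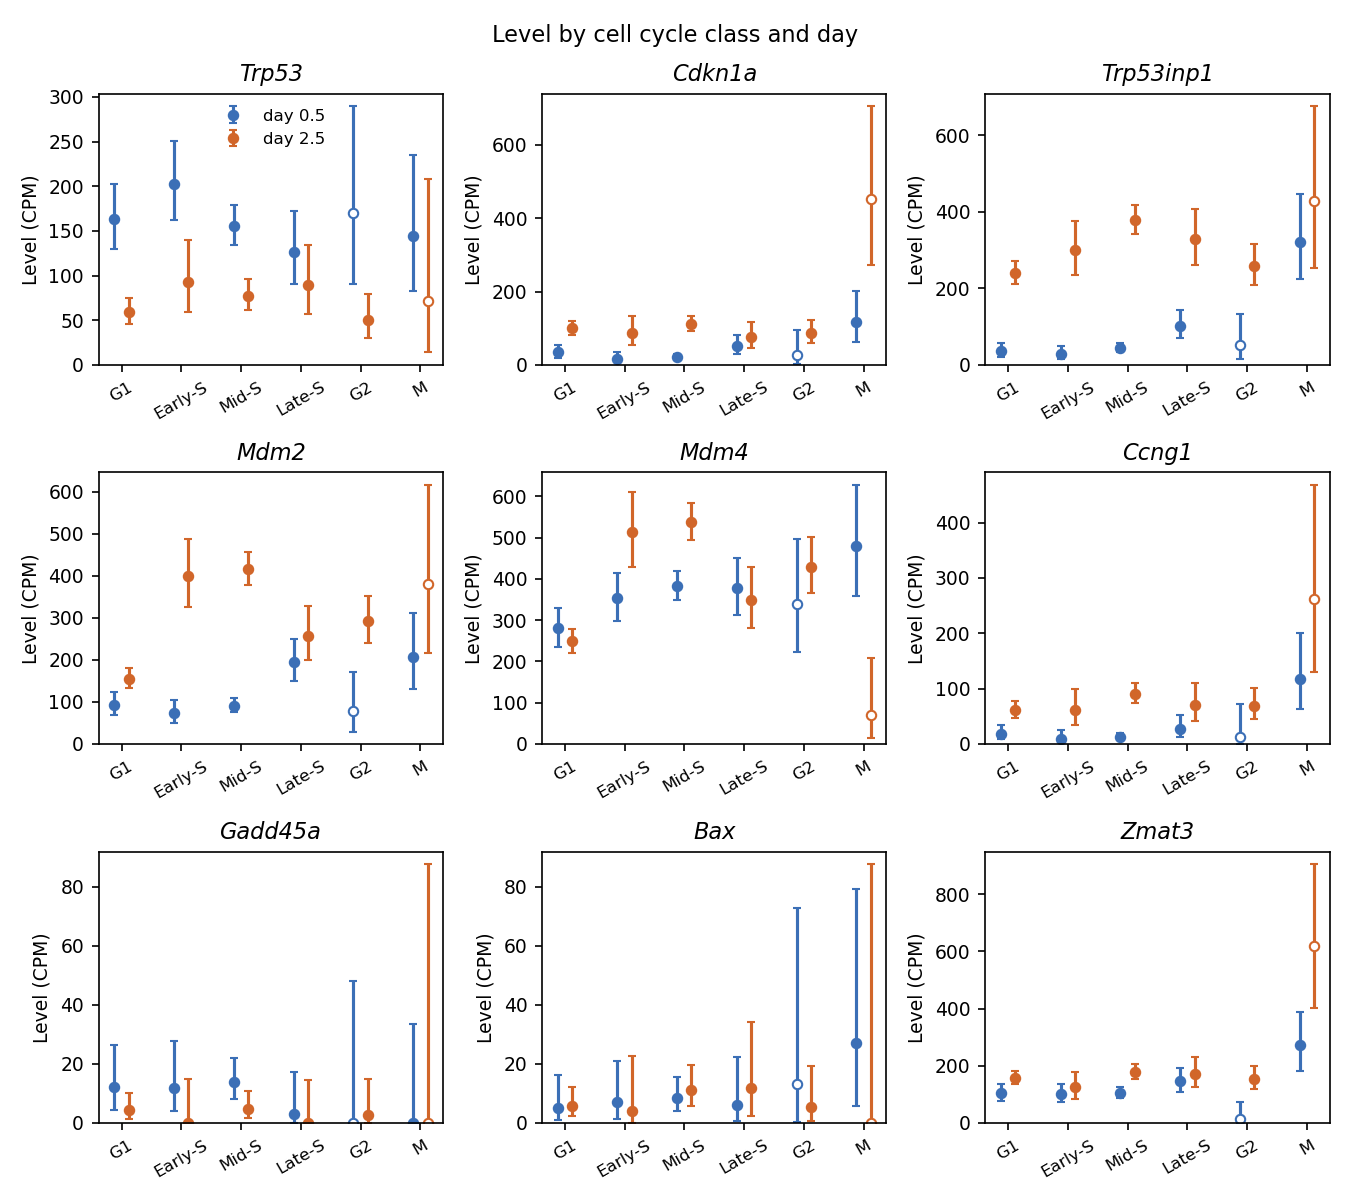
Level of each gene in CPM (vertical axes, from 0) by cell cycle class and day, with 95% Poisson intervals. Open points are classes of under 10 cells. The 4 cells of G0 at day 2.5 are not drawn. Among the classes drawn, Cdkn1a, Ccng1, Zmat3 and Trp53inp1 have their highest points in M cells on both days. For Trp53inp1 at day 2.5 this point rests on 18 UMIs, with a ratio over the other cells of 1.39 (0.82 to 2.21). Mdm2 and Mdm4 at day 2.5 are higher in Early-S and Mid-S than in G1.

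At day 2.5 Mdm2 and Mdm4 also differed between G1 and S phase. Mdm2 was at 156 CPM (133 to 180) in G1 cells, 400 CPM in Early-S cells and 415 CPM (378 to 456) in Mid-S cells. The ratio of Mid-S over G1 was 2.67 (2.24 to 3.20), and it was 1.83 in batch 2 and 4.18 in batch 3. Mdm4 was at 249 CPM in G1, 513 CPM in Early-S and 538 CPM in Mid-S, a ratio of 2.16 (1.87 to 2.504) that was 2.14 and 2.26 in the batches. Trp53inp1 was at 240 and 379 CPM, a ratio of 1.58. These were 3 of the 7 genes with enough UMIs, and none of the 7 was lower in Mid-S, against 12.1% higher and 18.8% lower among 9700 genes.

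Cdkn1a was at 99.3 CPM in G1 and 111.2 CPM in Mid-S cells of day 2.5 (ratio 1.12, from 0.86 to 1.46), but the batches went opposite ways, with 1.50 (1.04 to 2.20) in batch 2 and 0.78 (0.50 to 1.19) in batch 3. Ccng1 lay at the threshold with 1.50, and was at 1.88 in batch 2 and 1.24 in batch 3. At day 0.5 the ratio of Mid-S over G1 was 0.99 for Mdm2 (0.69 to 1.42) and 1.37 for Mdm4 (1.13 to 1.67). Whether the days differ in this ratio was not tested. In Late-S cells of day 0.5 Mdm2 was at 195 CPM with the single high cell and at 66.9 CPM without it, and Trp53inp1 at 102.03 and 15.9 CPM.

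The 5 genes Cdkn1a, Trp53inp1, Mdm2, Ccng1 and Zmat3, grouped after their values were seen, were also summed per cell. Their sum ranged from 0 to 10007 CPM at day 0.5 with a median of 200.5 CPM, and 30 of 201 cells had none. At day 2.5 it ranged from 0 to 4543 CPM with a median of 675 CPM, and 7 of 205 cells had none. The ranges overlap almost fully. The median of the 15 M cells at day 0.5 was 1005 CPM, from 0 to 3292 CPM, and that of the 41 G1 cells 209 CPM.

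**Figure D4:**
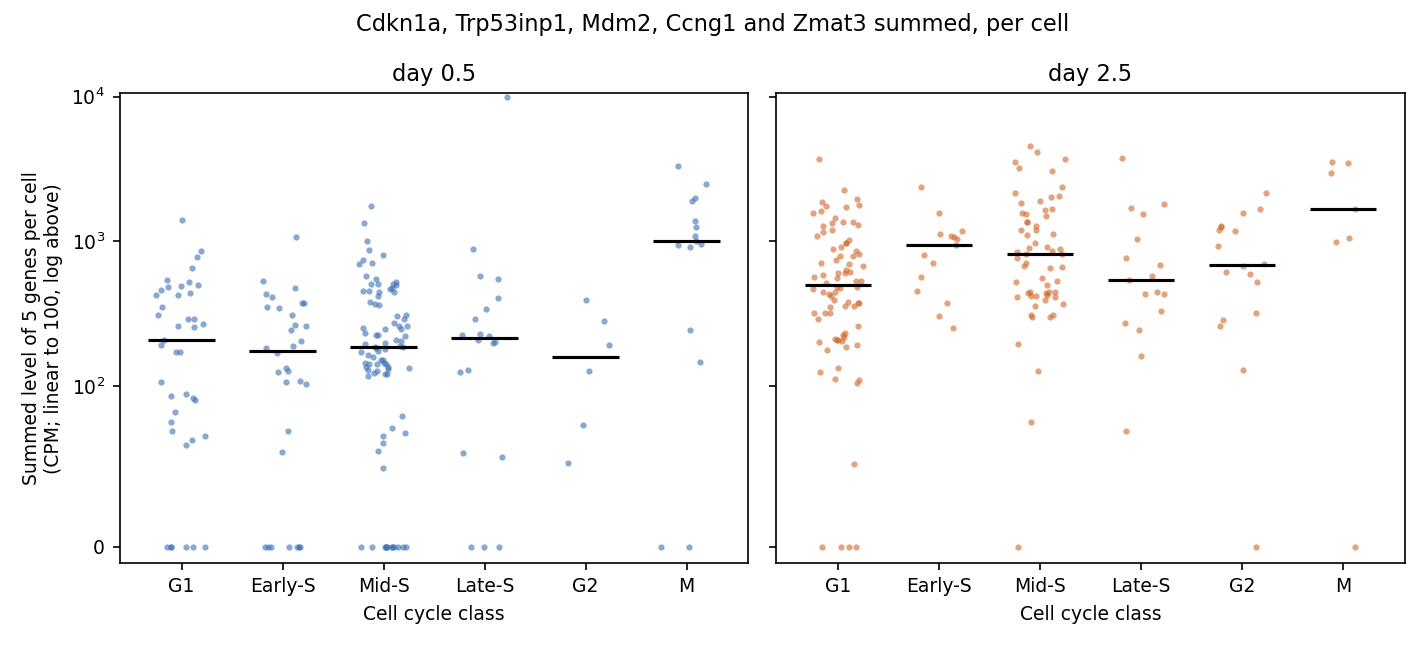
Summed level of Cdkn1a, Trp53inp1, Mdm2, Ccng1 and Zmat3 in every cell (vertical axis, CPM, linear up to 100 and logarithmic above) by cell cycle class, for day 0.5 on the left and day 2.5 on the right. Each point is a cell and each black line a class median. The medians run from 160 to 1005 CPM at day 0.5 and from 500 to 1660 CPM at day 2.5, and the point at 10007 CPM is the single Late-S cell.

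The authors' clusters are given as a description only, since no source used here says how they were drawn and they may rest on the same RNA. Their cluster 4 held 15 day 0.5 cells, of which 13 were of the M class, and 16 day 2.5 cells, of which 7 were. At day 0.5 its cells were at 599 CPM for Mdm2, 567 for Trp53inp1, 188 for Cdkn1a and 188 for Ccng1, and the cells of cluster 2, which held the other 186, were at 84.3, 36.6, 23.8 and 11.8 CPM. The single high Late-S cell is one of the 15, and without it cluster 4 was at 244 CPM for Mdm2, 347 for Trp53inp1, 126.9 for Cdkn1a and 136.7 for Ccng1. Trp53 was at 134 CPM in cluster 4 and 162 CPM in cluster 2. Without cluster 4 the ratios between days were 8.30 for Trp53inp1, 5.91 for Ccng1, 4.20 for Cdkn1a and 3.45 for Mdm2.

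At day 2.5 the genes were compared in pairs within cells. Over all 205 cells, a median of 5 of the 9 genes was seen per cell, and 10 cells held 8 of them. Of the 36 pairs, 35 had an expected number of at least 5 cells from the product of their shares, and 30 of these occurred together in more cells than expected. With the expected number summed over 3 bands of depth, 26 of 35 did. Depth raises all genes of a cell together, so the thinned cells carry the comparison. At 5000 UMIs, 21 pairs had enough expected cells and 15 of them lay above expectation.

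In the thinned cells, pairs with and without Trp53 differed in these counts. Of the 15 thinned pairs without Trp53, 14 lay above expectation, and of the 6 with it, 1 did. In unthinned cells more pairs with Trp53 lay above the product of shares. They were 6 of 8 over all cells, 5 of 8 in cells with at least 10000 UMIs, 6 of 7 in batch 2 and 5 of 6 when a gene was counted from 2 UMIs. With expectation summed over 3 bands of depth, they were 4 of 8, 4 of 8, 3 of 7 and 4 of 6. Pairs without Trp53 then lay above it in 22 of 27, 22 of 27, 16 of 21 and 15 of 15. Trp53inp1 and Mdm2 were seen together in 69 cells with 61.03 expected, Trp53inp1 and Ccng1 in 39 with 31.1 expected, Cdkn1a and Mdm2 in 42 with 33.7 expected, and Mdm4 and Ccng1 in 48 with 40.6 expected. Cdkn1a and Ccng1 were the exception, with 16 cells and 17.2 expected. Trp53 and Mdm2 were seen together in 25 cells with 30.0 expected, and Trp53 and Trp53inp1 in 28 with 32.2 expected. For each of the 21 pairs the expected number lay within the counting interval of the observed one, such as 55.9 to 83.01 for Trp53inp1 and Mdm2, and pairs that share a gene are not independent.

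Levels were compared in the same thinned cells. The 63 day 2.5 cells with Cdkn1a held 1.84 UMIs of Mdm2 on average and the 135 without it 1.15, a ratio of 1.60 (1.25 to 2.05). For Trp53inp1 the means were 1.98 and 1.28 UMIs, a ratio of 1.55 (1.22 to 1.96), and for Mdm4 the ratio was 1.48 (1.19 to 1.83). For Ccng1 it was 0.95 (0.56 to 1.57). The 56 cells with Trp53 held 1.00 UMI of Mdm2 on average and the 142 without it 1.51, a ratio of 0.66 (0.48 to 0.89). For Trp53inp1 the ratio by Trp53 was 1.03 (0.79 to 1.33) and for Ccng1 1.06 (0.62 to 1.75). At 5000 UMIs both kinds of cell had the same depth, and cells of different classes and batches were pooled. Over all day 2.5 cells of batches 2 and 3, Trp53 was at 81.7 and 51.7 CPM and Mdm2 at 238 and 355 CPM, in opposite directions. The 3 Mid-S cells of batch 3 with 48, 50 and 54 UMIs of Mdm2 held 3, 1 and 1 of Trp53 before thinning. The part of batch and of these cells in the ratio of Mdm2 by Trp53 was not tested.

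At day 0.5 the split by Cdkn1a rested on fewer cells with it and partly on 1 cell. In the 27 thinned cells with Cdkn1a the mean was 1.48 UMIs of Trp53inp1, and in the 167 without it 0.16, a ratio of 9.52 (5.67 to 16.2). Mdm2 was 5.27 times and Zmat3 3.37 times as high. Without the single high Late-S cell the ratios were 4.69 (2.46 to 8.82) for Trp53inp1, 2.84 (1.74 to 4.54) for Mdm2 and 2.92 (1.83 to 4.56) for Zmat3. The ratio of Mdm2 by Trp53 was 0.65 (0.44 to 0.96) with that cell and 1.05 (0.68 to 1.65) without it. Trp53inp1 and Zmat3 were seen together in 18 cells with 8.8 expected. Without M cells, 14 of 15 day 2.5 pairs without Trp53 and 10 of 11 such day 0.5 pairs stayed above expectation.

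**Figure D5:**
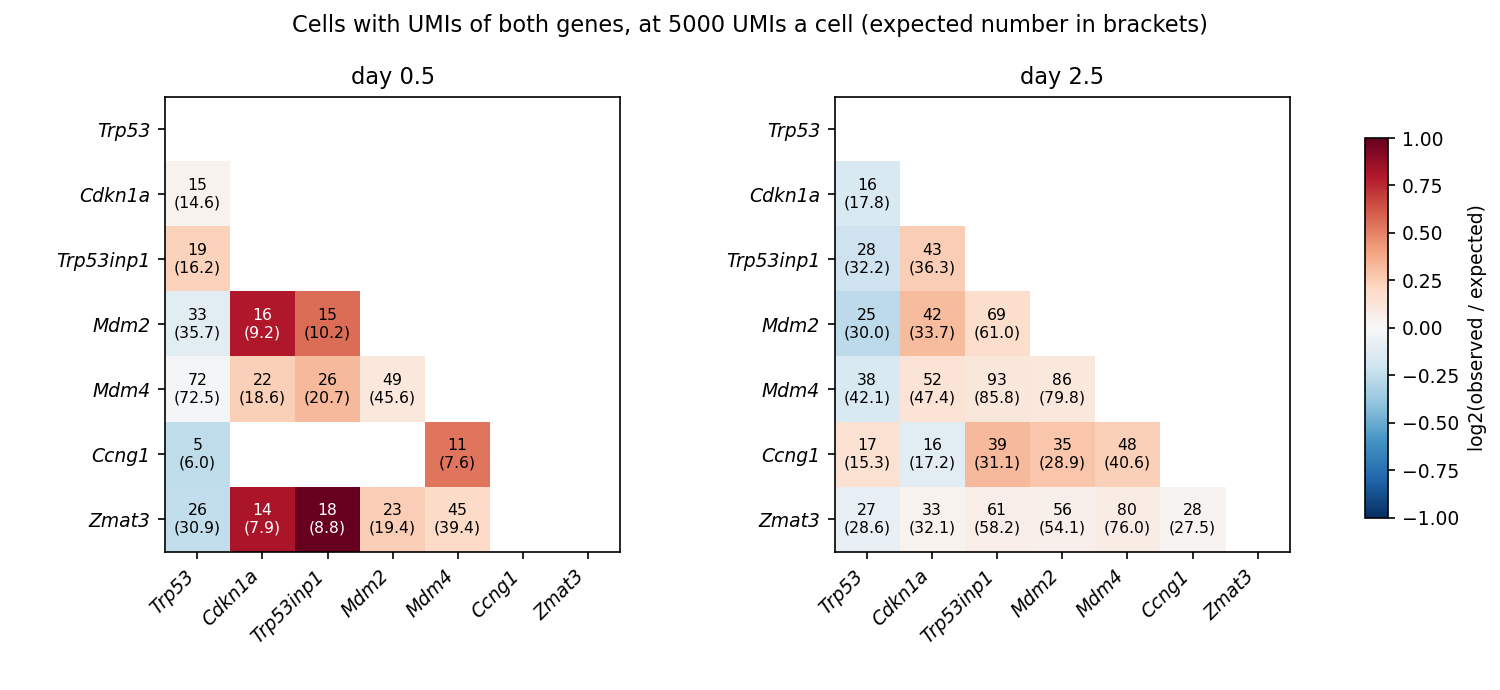
Number of cells with UMIs of both genes of a pair and, in brackets, the number expected from the product of their shares, after thinning to 5000 UMIs, for 194 cells at day 0.5 and 198 at day 2.5. Colour gives log2 of observed over expected, and pairs with fewer than 5 expected cells are blank. Gadd45a and Bax are left out for the same reason. At day 2.5, 14 of 15 pairs without Trp53 are above expectation and 1 of 6 with it.

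Other readouts of the same cells were set beside the genes at day 2.5. Cells with an Xist UMI, the RNA that coats the inactive X chromosome, were at 96.8 CPM for Cdkn1a and those without at 135 CPM, a ratio of 0.72, and 0.83 to 0.86 was the ratio for Mdm2, Trp53inp1 and Mdm4. Trp53 went the other way, with 1.22 (0.86 to 1.77). The authors' pseudotime, a score that orders cells along differentiation, covers only the 122 day 2.5 cells of their allele table. Between its 61 late and 61 early cells, split at the median, ratios were 0.84 for Cdkn1a, 0.89 for Mdm2, 1.11 for Ccng1 and 1.27 for Trp53inp1. Mdm2 was at 365 CPM in the cells above the median share of contacts between chromosomes and 208 CPM in those below. Cells in the authors' allele table had 0.59 times the Mdm2 of cells outside it. Cell cycle class, depth and these readouts overlap, and their separate parts were not tested.

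In the wider pathway, 15 of the 36 other p53 target genes with enough UMIs were higher at day 2.5 and 6 lower (41.7% and 16.7%, with 21.4% and 25.6% among all genes). The median log2 change was 0.16 over these 36 genes and -0.06 over all genes. The called genes with the most UMIs were Polk, a translesion DNA polymerase, at 76.996 and 230 CPM, Apaf1, the core of the apoptosome, at 62.7 and 217 CPM, Ckap2 at 91.9 and 155 CPM, and Sulf2, which was lower at 138 and 79.1 CPM. Pvt1 (1765 and 1762 CPM) and Fbxw7 (303 and 349 CPM) were not called. The following were chosen after their values were seen. Plk2, a kinase of stressed cells, went from 2.64 to 37.7 CPM, Ddit4, an inhibitor of mTORC1 signalling, from 5.27 to 37.04 CPM, and the apoptosis activators Pmaip1 and Bbc3 from 3.77 to 22.9 and from 6.40 to 16.3 CPM. Sesn1, a target linked to antioxidant defence, was lower, at 139 and 58.4 CPM. Members of this list thus lay on both sides, and 7 of the 43 had fewer than 20 UMIs.

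Of 25 upstream regulators of p53, 4 were higher and 5 lower, close to the shares over all genes. The higher ones were the checkpoint kinase Chek2 (108.1 and 189 CPM), the phosphatase Ppm1d (48.005 and 91.6), Trp53bp2 (27.7 and 53.4) and Ppp1r13l (3.95 and 11.5). The lower ones were the deacetylase Sirt1 (428 and 202 CPM), Chek1 (48.9 and 21.97), Rchy1 (41.8 and 21.7), Daxx (19.955 and 7.22) and Cdkn2a (9.04 and 4.86). For Cdkn2a the interval of the ratio, 0.26 to 1.06, included 1. The deubiquitinase Usp7 (920 and 742 CPM) and the acetyltransferase Crebbp (455 and 507 CPM) were not called.

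Of the 15 genes downstream of p21 and of G1 cyclins, 1 was higher and 5 lower (6.67% and 33.3%, with 21.4% and 25.6% among all genes). Rb1, the retinoblastoma protein gene, was at 74.4 and 184 CPM. The lower ones were E2f2 (133 and 16.2 CPM), Ccnd1 (118.2 and 35.5), Ccnd3 (141 and 60.5), Cdk4 (26.5 and 13.2) and Ccnd2 (17.7 and 10.4), while E2f3 (383 and 423) and Cdk6 (309 and 340) were not called. Of 21 measured genes of the BCL2 family and caspase pathway, 7 were higher and 3 lower (33.3% and 14.3%, against the same shares of all genes). The higher ones included the survival gene Bcl2 (6.97 and 80.04 CPM), its antagonist Bcl2l11 (143 and 228) and Birc2 (28.2 and 54.5). Xiap (386 and 250 CPM), Birc5 (48.8 and 24.2) and Cycs (4.89 and 2.67) were lower, with a ratio interval for Cycs that included 1 (0.20 to 1.40). Bcl2l1 (169.8 and 115.7 CPM) and Mcl1 (86.97 and 87.7) were not called.

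Of 9 measured relatives of p53 and of the other genes, 4 were higher and none lower, with 21.4% higher and 25.6% lower among all genes. These were Trp73 (13.6 and 36.6 CPM), the cyclin-dependent kinase inhibitor gene Cdkn1b (4.89 and 9.73), Ccng2 (2.64 and 14.1) and Bok (1.88 and 4.71). For Bok the interval of the ratio, 0.86 to 8.80, included 1. Zmat5 and Zmat2 were not called. The integrated stress response, another response that can act on some of these genes, had 2 of 12 measured genes higher and 3 lower. These are 16.7% and 25%, with 21.4% and 25.6% among all genes. Phgdh (5.27 and 15.1 CPM) and Vldlr (3.77 and 11.3) were higher. Ddit3 (7.91 and 3.45), Atf5 (5.65 and 3.45) and Trib3 (5.27 and 3.45) were lower. The ratio intervals of Atf5 (0.25 to 1.42) and Trib3 (0.27 to 1.55) included 1. Psat1 and Sesn2 were not called.

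Over the 10 groups of day and class with at least 10 cells, the gene most like Cdkn1a among 7715 others was Ccng1, with a Pearson r of 0.98 of log2(CPM + 5). It was followed by Trp53inp1 (0.96), Ryk (0.95), Usp44 (0.94) and Rnf19a (0.94). For Trp53inp1 the nearest genes were Ccng1 (0.97), Usp44, Etfbkmt, Aqr and Cdkn1a (each 0.96). Mdm2 had an r of 0.84 with Cdkn1a and 0.90 with Trp53inp1, Zmat3 0.82 and 0.79, and Trp53 -0.73 and -0.75. The 10 groups share 2 days and the same M cells, so these values describe the pattern over these groups and no more.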

How the data were processed

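Per the file headers and values, the values of the deposited expression table are expected counts (UMIs per gene in a cell), of which 11.1% of values above 0 are fractions. The authors' deposited cell tables give counts of UMIs and contacts, the fraction of contacts between chromosomes, and scores of cell cycle and pseudotime. Per the submitters' processing notes, reads were placed on GRCm38. No source used here gives the aligner, the counter, strand use or the cell and doublet filters, and no doublet caller was run. UMIs on exons were 26.3% (day 0.5) and 24.2% (day 2.5) of gene UMIs. The metadata list 471 cells of these libraries, of which 406 have expression values, and 1101 columns of no sample here were not used.

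UMIs were summed per group and scaled to CPM. Change was log2((CPM day 2.5 + 5)/(CPM day 0.5 + 5)). Shares have Clopper-Pearson and their differences Newcombe intervals, levels have exact Poisson and ratios exact conditional ones. Thinning used 1 random draw, after rounding fractions at random in proportion. The calling rule was tested on simulated data. Genes were named by a rule: of each list, up to 4 called with the most UMIs, up to 2 uncalled, and all of a count of 5 or fewer. The genes and lists were chosen with earlier results of these data known. Python 3.11, numpy, pandas and scipy were used. Alternatives varied scaling, pseudocount, minimum, threshold, depth, batch, letter in the cell name, cells and weighting.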

Additional observations from a re-analysis of the deposited data

How the results depend on the processing

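Cdkn1a, Trp53inp1, Mdm2 and Ccng1 were called higher and Trp53 lower under all 17 alternatives of the calls, Zmat3 higher under 9 and Gadd45a lower under 13. The number of p53 pathway genes called lower was 1 in letter B, in batch 2, after thinning and at a minimum of 100 UMIs, where Gadd45a drops out. Their log2 changes kept their sign in all alternatives except for Bax, which ran from -0.62 to 0.36. The Mdm4 share of cells differed by -3.49 points after thinning to 3000 UMIs. Of 144 such values, 28 lay outside the main interval, for Mdm2 from 0.92 (batch 2) to 1.99 (without batch 2). Other p53 target genes, 15 higher and 6 lower of 36, turned in balance in letter B, with 2 higher and 7 lower of 12. Batch 2 gave 10 higher and 7 lower of 32, a minimum of 100 UMIs 9 higher and 4 lower of 21, and a ratio of 2 gave 10 and 3 of 36. Among all genes the shares higher and lower were 23.5% and 24.9% in letter B and 21.2% and 25.1% in batch 2. They were 19.9% and 20.6% at a minimum of 100 UMIs, and 13.1% and 13.9% at a ratio of 2. Pairs above expectation numbered 15 after thinning, which left 21 pairs with enough cells. For the ratio of M over other cells, thinning gave 3.43 for Ccng1 and 4.11 for Zmat3, with 9 M cells kept. Batch 1 gave 2.01 for Cdkn1a, 1.89 for Trp53inp1 and 0.47 for Mdm2, below 1. The Mdm2 ratio of Mid-S over G1 was 1.83 in batch 2 and 4.18 in batch 3. Log2 changes turned for Aen (-0.86), Atf5 (0.023), Cycs (0.47) and Phgdh (-1.03) in letter B and for Ccnd2 (0.034) without batch 2. The causes were not tested. Batch 1 and 3 alternatives and those without the M class, cluster 4 or 1 cell were chosen after seeing the data. No paired analysis was possible because each day is 1 sample with no named replicate. Depth limits Gadd45a, Bax and all values of M cells most.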
